A study of Homo sapiens with 22 samples.

Results

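This report describes 676 reporter tags, 0.320% of the 211385 tags with at least 100 reads in both plasmid input libraries, that were moderately active at similar levels in 2 lung cancer cell lines. In all, 238017 tags were listed in at least 1 library. Each tag is a short synthetic sequence in the transcript of a luciferase reporter plasmid, so reads of a tag in RNA, set against reads of the same tag in plasmid DNA, measure how much transcript that plasmid gave. The pool was transfected into A549, an established line from a human lung adenocarcinoma, and into H520, an established line from a human squamous cell carcinoma of the lung. Cells of each line received either DMSO, the vehicle, or benzo(a)pyrene (BaP) at 10 µM, for 18 h in A549 and for 42 h in H520. The 4 groups held 5 transfections each, and plasmid DNA was read once per line as input, in 1 library.

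Members were chosen by the RNA readout itself. Activity was log2 of the RNA level over the level in the H520 input, with 0.5 TPM (counts of the tag per M counts of the library) added to each, minus the median of that library over the 211385 tags, so that 0 is the typical tag. The mean of the 10 A549 libraries (DMSO and BaP together) and the mean of the 10 H520 libraries both had to be at least 1, which is 2-fold above the typical tag. They had to lie within 1 log2 unit of each other, and their average had to be under 2.5, which is 5.66-fold. Levels, the difference between the lines and the size of the set are therefore a description and carry no test. BaP against DMSO was not used by the rule, since the rule averaged both treatments, and it is the comparison tested here.

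In such a reporter assay a fragment cloned beside a basal promoter raises transcription when transcription factors of the host cell bind it. Fragments that use factors found in most cells tend to be active in many lines, and fragments that need lineage factors tend to be active in few. BaP, a combustion product found in tobacco smoke, is a ligand of the aryl hydrocarbon receptor, which then pairs with ARNT at xenobiotic response elements of genes such as CYP1A1. Which fragment each tag marks is not known here, and 1 fragment may carry several tags. Tags are therefore not independent of each other, and their number is not a number of regulatory fragments.

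The 6 members with the most reads in the less deeply read input are shown first, as the best measured of the set. Each tag has 15 bases, of which the first 12 vary and the last 3 are ggc in every tag. Tags are written as deposited. They are synthetic, and no genome position or annotation applies to them.
Tag 1: cggcgtcgtctaggc
Tag 2: tgacgcttggctggc
Tag 3: cgttagaatattggc
Tag 4: tgcgtcgttgacggc
Tag 5: gctcgtttcatgggc
Tag 6: ctcttagaatgaggc

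Tag 1 (cggcgtcgtctaggc) had 8837 reads in the A549 input and 7153 in the H520 input, or 26.5 and 26.9 TPM. In A549 RNA it read 97.0, 123, 114, 94.4 and 80.9 TPM in DMSO transfections 1 to 5, and 136, 120, 87.2, 86.7 and 71.8 TPM in BaP transfections 1 to 5. In H520 RNA it read 192, 199, 179, 222 and 192 TPM with DMSO and 187, 192, 179, 209 and 186 TPM with BaP. All H520 libraries were above all A549 libraries, and DMSO and BaP values overlapped in both lines. The means were 102 ± 16.7 and 100.2 ± 26.4 TPM (SD, n = 5) in A549, and 197 ± 15.9 and 191 ± 11.2 TPM (SD, n = 5) in H520.

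Tag 3 (cgttagaatattggc) was close to equal in the lines. It had 20.5 TPM in the A549 input and 21.96 TPM in the H520 input. In A549 it read 79.2, 81.5, 79.2, 85.3 and 56.9 TPM with DMSO and 82.1, 90.2, 63.7, 74.6 and 49.3 TPM with BaP. In H520 it read 74.9, 81.6, 74.0, 77.3 and 78.0 TPM with DMSO and 78.2, 80.7, 70.9, 77.4 and 79.6 TPM with BaP. Its A549 values spread over a wider range than its H520 values and enclosed them, with transfection 5 the lowest in both A549 treatments.

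The other best measured tags were higher in H520. Tag 5 (gctcgtttcatgggc) had a mean activity of 1.9998 in A549 and 2.9877 in H520, the largest line difference of the 6. Its TPM with DMSO was 65.1, 78.4, 83.3, 67.6 and 53.5 in A549, and 148.7, 150.3, 138.8, 166.3 and 142.1 in H520, with no overlap between the lines. Tag 2 (tgacgcttggctggc) stood at mean activities of 1.62 and 2.46, tag 4 (tgcgtcgttgacggc) at 1.81 and 2.34 and tag 6 (ctcttagaatgaggc) at 1.99 and 2.77, A549 first. Transfection 5 was the lowest of the A549 libraries of its group for each of these 6 tags, in DMSO and in BaP.

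Across the set, median activity was 1.61 in A549, a 3.06-fold level, and 1.95 in H520, a 3.87-fold level. The middle 90% of members lay between 1.05 and 2.27 in A549 and between 1.13 and 2.77 in H520. Although the rule bounds the difference of the lines, members did not spread evenly within that bound. The H520 mean was the higher for 518 of 676 members (76.6%), against 49.96% of all 211385 tags, and the median of A549 minus H520 was -0.38. The lines were within 0.25 log2 units of each other for 222 members (32.8%), against 57.6% of all tags. They were within 0.5 for 399 (59.0%), against 87.2%. All 10 H520 libraries lay above all 10 A549 libraries for 317 members (46.9%), where 15.4% of all tags did so. The reverse held for 33 members (4.88%), where 15.6% of all tags did so. The rule used this contrast, so nothing is read from these counts.

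The 242 tags that met the same rule at an average of 2.5 or more, called strong balanced tags below, were nearer to equal, with a median A549 minus H520 of -0.17 against -0.38 in the moderate set. These are values of sets that the rule separated, and their difference was not tested.

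The median input count of members was 1522.5 in A549 and 1199 in H520, where the median over all tags was 1284 and 1031, and 546 members (80.8%) had at least 500 counts in both inputs. The lowest count of any member in any RNA library was 188. Activity was above 0 in all 20 RNA libraries for 676 of 676 members, against 11.3% of all tags. It was at least 1 in all 20 for 523 (77.4%), against 0.548% of all tags. In all 10 A549 libraries it was at least 1 for 551 (81.5%), against 1.16%, and in all 10 H520 libraries for 625 (92.5%), against 0.853%. The rule set a minimum on the means of these same values, so nothing is read from these shares. Together the 676 tags held 3647 TPM of the A549 input and 3611 TPM of the H520 input. In RNA they held 8576 to 12895 TPM in A549 and 15333 to 17336 TPM in H520.

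The letters of the members' tags were close in makeup to those of all tags. Members had a mean G+C content of 47.7% ± 12.4 over the 12 variable bases (SD over 676 members), and 47.7% ± 12.5 over all tags. The largest difference in base use at any position was at position 1, counted from the 5′ end, where 16.7% of members and 20.2% of all tags had T. Tags with the letters AATAAA, a polyadenylation signal, CACGTG or TTTTT, searched on both strands of the 15 bases, numbered 0 of 211385. ATG was present on either strand in 27.2% of members and 27.4% of all tags, and ATTTA in 1.63% and 2.13%.

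Few members held a known protein-binding motif within the tag. Those with the xenobiotic response element core, the AP-1 pattern or the GC box are listed with the motif in capitals. They were chosen after their values were seen. The motif may sit on either strand and may run into the fixed bases. The AP-1 site was searched as the pattern TGANTCA, in which N stands for any base. The member listed has T there, so it matches this pattern and is not shown to hold a stricter AP-1 site.
Xenobiotic response element core GCGTG: tataaccgGCGTGgc
AP-1 site TGANTCA: ctagtTGATTCAggc
GC box GGGCGG: aggctattGGGCGGc
GC box GGGCGG: agttcgccGGGCGGc

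The core of the xenobiotic response element was found in 0.148% of members and 0.568% of all tags. The AP-1 pattern was found in 0.148% and 0.062%, and the GC box in 0.296% and 0.304%. TATAAA was held by 3 members (0.444%), not printed here, and by 0.314% of all tags. The tag with the xenobiotic response element core stood at mean activities of 1.41 in A549 and 1.27 in H520. Its log2 fold change of BaP over DMSO was -0.09 (SE 0.152) in A549 and 0.07 (SE 0.0548) in H520, with edgeR adjusted p-values of 0.9999 and 0.998. The tag with the AP-1 pattern stood at 1.59 and 1.49. A match here is a description of the tag, since the fragment lies elsewhere in the plasmid.

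Tags that differ by 1 base from a member were active about as often as any tag. Of 2670 such neighbours, 10 (0.375%) were members, against 0.320% of all tags, and 2621 (98.2%) were in no active class, against 98.4% of all tags. The median neighbour stood at 0.01 in A549 and 0.02 in H520. Tag 1 is shown again with its 5 neighbours, the differing base in capitals, to let the letters be compared with the levels.
Tag 1: cggcgtcgtctaggc
Neighbour G2C: cCgcgtcgtctaggc
Neighbour T9A: cggcgtcgActaggc
Neighbour T9G: cggcgtcgGctaggc
Neighbour T11A: cggcgtcgtcAaggc
Neighbour T11C: cggcgtcgtcCaggc

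In these names the member's base comes first, then the position from the 5′ end, then the base of the neighbour. Tag 1 stood at 2.08 in A549 and 2.91 in H520. Neighbour G2C stood at -0.04 and -0.21, T9A at 0.05 and -0.17, T9G at -0.03 and -0.19, T11A at 0.27 and 0.02, and T11C at -0.12 and 0.16. All 5 were near the typical tag in both lines, and the least read of them had 989 and 755 input counts.

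Among members, 5 pairs were 1 base apart. The best measured 4 are printed with the differing base in capitals.
Pair 1, first: cgcgAatatcgcggc
Pair 1, second: cgcgCatatcgcggc
Pair 2, first: ccaatttcgaAgggc
Pair 2, second: ccaatttcgaTgggc
Pair 3, first: caacGatgactcggc
Pair 3, second: caacTatgactcggc
Pair 4, first: gttgcgAtactcggc
Pair 4, second: gttgcgTtactcggc

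The tags of pair 1 (A5C) stood at 1.71 and 1.81 in A549 and at 2.42 and 2.58 in H520. Those of pair 2 (A11T) stood at 2.14 and 1.90 in A549 and at 2.83 and 2.42 in H520. In pair 3 (G5T) the tags were alike in A549, at 1.78 and 1.74, and unlike in H520, at 1.16 and 1.95. This likeness depended on the H520 input, in which the pair 3 tags had 980 and 1041 reads. In the A549 input they had 2002 and 1090 reads. Their mean RNA levels in A549 with DMSO were 12.2 and 12.4 TPM. Against the A549 input, the first tag would thus be the lower in A549 as well. An effect of the base that differs between the lines was not tested. In pair 4 (A7T) the tags differed in A549, at 2.06 and 1.48, and less in H520, at 1.68 and 1.54.

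For 4 members a neighbour had over 10 times their mean RNA level, so that misread bases of the abundant tag could add to the member's count. They are printed with that neighbour, chosen after their values were seen.
Member: ttaaatgcgaTcggc
Its neighbour T11A: ttaaatgcgaAcggc
Member: aacTtaatgaaaggc
Its neighbour T4G: aacGtaatgaaaggc
Member: aagtatcgcgaCggc
Its neighbour C12T: aagtatcgcgaTggc
Member: tgattgcgtcTgggc
Its neighbour T11A: tgattgcgtcAgggc

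The first member read a mean of 11.2 TPM in A549 and 11.3 TPM in H520, while its neighbour read 878 and 72.9 TPM. The neighbour was thus 78.1 times as abundant in A549 and 6.45 times in H520, and the member had nearly the same level in both. The second member read 4.59 and 4.14 TPM beside a neighbour at 90.4 and 302 TPM. The member was slightly higher in the line in which the neighbour was lower. The third read 4.08 and 6.11 TPM beside 66.8 and 307 TPM, and the fourth 5.04 and 5.62 TPM beside 23.1 and 85.8 TPM, so these members and their neighbours were both higher in H520. What part of these members' counts came from misread neighbours was not tested.

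Members varied more between transfections in A549 than in H520, most clearly with BaP. The mean activity of the 676 tags was 1.65, 1.65, 1.73, 1.66 and 1.49 in A549 DMSO transfections 1 to 5, and 1.76, 1.77, 1.54, 1.60 and 1.40 in A549 BaP transfections 1 to 5. In H520 it was 1.91, 1.96, 1.86, 2.01 and 1.91 with DMSO, and 1.94, 1.98, 1.89, 2.02 and 1.93 with BaP. Each H520 library was above each A549 library, by the rule's own measure, and treatments overlapped in both lines. The group means were 1.64 ± 0.09 and 1.61 ± 0.15 (SD, n = 5) in A549, and 1.93 ± 0.06 and 1.95 ± 0.05 (SD, n = 5) in H520, DMSO first.

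Tag by tag, the median SD over 5 transfections was 0.13 in A549 with DMSO, 0.18 in A549 with BaP, 0.11 in H520 with DMSO and 0.10 in H520 with BaP. With BaP the SD was larger in A549 than in H520 for 566 of 676 members (83.7%), against 47.4% of all tags. With DMSO it was larger for 423 (62.6%), against 56.4%.

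Transfection 5 stood apart in A549. It was the lowest of 5 for 503 members (74.4%) with DMSO and for 543 (80.3%) with BaP, where the same library was lowest for 16.5% and 17.8% of all tags. Members at an activity of at least 1 numbered 610 in A549 DMSO transfection 5 and 583 in A549 BaP transfection 5, and 634 to 671 in the other A549 libraries. These were also the libraries in which the most abundant reporters took the largest share of their group's counts. The 10 most abundant tags held 2.26% and 2.59% of all counts there, 0.836% to 2.07% in the other A549 libraries, and 0.333% to 0.426% in H520. Tags with an activity of at least 1 in A549 that were also 2-fold or more higher there than in H520, called A549-higher tags, had their highest group values there too, at mean activities of 2.83 and 2.99. Strong balanced tags had their lowest group means in transfection 5 as well, at 2.70 with DMSO and 2.54 with BaP. So did tags with an activity of at least 1 in H520 that were 2-fold or more higher there than in A549, at 0.70 and 0.66. The part of these library differences in the members' levels was not tested.

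The highest member means in A549 were in libraries where the 10 most abundant tags held under 1% of counts. DMSO transfection 3, BaP transfection 1 and BaP transfection 2 had member means of 1.73, 1.76 and 1.77, and their 10 most abundant tags held 0.836%, 0.906% and 0.997% of counts. The A549-higher tags stood at 2.13, 1.92 and 2.13 in these libraries. DMSO transfection 2, the only other A549 library with so low a share, at 0.975%, had a member mean of 1.65. Without both A549 libraries of transfection 5, the rule gave 683 tags, of which 655 were among the 676.

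A few members ran against this order. The tag acgcggaatccgggc had the largest SD of any member over the 10 A549 libraries, at 0.62, and only 0.14 over the 10 H520 libraries. Its activity was 1.51, 0.63, 0.75, 1.26 and 1.84 in A549 DMSO transfections 1 to 5, and 0.48, 0.74, 1.69, 1.65 and 2.34 in A549 BaP transfections 1 to 5. It was highest in transfection 5, where most members were lowest, and its values in H520 stayed between 0.92 and 1.28. It had 216 and 336 input counts, and with taggaatcgatcggc, whose SD in A549 was 0.29, it was the most variable. Besides it, gaccgccatgatggc was highest in transfection 5 with DMSO, and agttgcgtcagaggc, atcccgctactgggc and gctaccgcgacgggc were highest there with BaP. In that order, activity in transfection 5 and in the next highest library was 1.2058 and 1.1581, 1.807 and 1.802, 1.4416 and 1.3735, and 1.1964 and 1.0538. The lead of agttgcgtcagaggc was far below its SD over these BaP libraries, 0.037, so this tag was flat. These tags were found after values had been seen.

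The steadiest members in A549 were cttcatgcgttcggc, at 1.22 with an SD of 0.05 over 10 libraries, and agttgcgtcagaggc, at 1.77 with an SD of 0.05. In H520 the steadiest was tgcggtcggagcggc, which read 60.9, 60.2, 62.4, 61.3 and 62.4 TPM with DMSO and 60.4, 61.4, 61.5, 58.7 and 59.8 TPM with BaP. Next came gcaagctatcttggc, at an activity of 2.52 with an SD of 0.03. In A549 tgcggtcggagcggc went from 29.1 to 40.9 TPM, so it was steady in H520 and not in A549. The most variable members in H520, aattccgatcatggc and caggtaagtatgggc, had SDs of 0.24 and 0.21 and 237 and 419 counts in the H520 input.

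Whether a tag met the rule depended in part on the input library in the denominator. With each line's own input, 568 of the 676 (84.0%) met the rule again. Of the rest, 26 became higher in H520 by 1 or more, 27 passed the upper limit and 55 fell out of every active class. With the mean of both inputs 595 (88.0%) met it, and with the A549 input in both lines 527 (78.0%). Under these choices the rule gave 707, 666 and 667 tags in all, so the size of the set moved little while its makeup changed. With the mean of both inputs or the A549 input, 0 of the 676 differed by 1 log2 unit or more between the lines. An input shared by both lines cancels from that difference, apart from the centring, so those choices could hardly move it. The median A549 minus H520 was -0.38 with the H520 input, -0.37 with the other shared inputs and -0.39 with each line's own input.

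The inputs themselves were close for most members. The ratio of A549 to H520 input TPM had a median of 1.02 in members and 0.993 in all tags, and the middle 90% of members lay between 0.750 and 1.54. It was over 1.5 for 44 members (6.51%), against 4.80% of all tags, and under the inverse of 1.5 for 9 (1.33%), against 6.65%. The H520 input is the denominator of the rule, so a lower level in it gives a higher activity in both lines. Its part in these ratios was not tested. Each input is 1 library, so its own error is not known beyond counting error.

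At the extremes of this ratio, tag actaccaacgctggc had 644 reads in the A549 input and 204 in the H520 input, a TPM ratio of 2.52, and ttcgttcgcgatggc had 940 and 314, a ratio of 2.39. At the other end, accagtcgttcgggc had 990 and 1540 reads, a ratio of 0.512, as did acgcggaatccgggc with its 216 and 336. The RNA of accagtcgttcgggc was well measured, at 20.9, 21.8, 21.3, 19.2 and 18.2 TPM in A549 with DMSO and 43.6, 43.5, 48.1, 45.1 and 40.0 TPM in H520 with DMSO. The lines did not overlap in RNA level for this tag with DMSO.

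Next, BaP was set against DMSO within each line, to ask whether exposure changed transcription from these reporters. In A549 no member passed the test. edgeR's quasi-likelihood test called 0 of 676 members at an adjusted p of 0.05, beside 0.0% of the 223066 tags tested, and DESeq2 also called 0. At an unadjusted p under 0.05 there were 4 members (0.592%), where 2.6% of all tags had such a p. Of these, 1 was higher and 3 were lower with BaP, where 1.18% and 1.42% of all tags were. This count changed with the libraries used. It was 9 without BaP transfection 1, 8 without DMSO or BaP transfection 2, 2 without BaP transfection 3 or DMSO transfection 4, 9 without BaP transfection 4, 19 without DMSO transfection 5 and 11 without BaP transfection 5. With the transfection number as a block it was 15, and without scaling factors 2.

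The log2 fold changes in A549 were small. Their median over members was -0.02, the middle 95% lay between -0.13 and 0.09, and the median SE was 0.083. BaP was the higher for 236 of 676 members (34.9%), against 49.3% of all tags. That count rested on single libraries. It was 89 without BaP transfection 1, 92 without BaP transfection 2 and 120 without DMSO transfection 5, and it passed the other way, to 341 without BaP transfection 3, 383 without DMSO transfection 3 and 464 without BaP transfection 5. The mean level of the set differed by -0.02 log2 units, less than the SD between transfections in either treatment. With each A549 library left out in turn, that difference lay between -0.06 and 0.03. No member had 5 BaP values all above or all below the 5 DMSO values, where 0.252% and 0.224% of all tags did.

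The member with the smallest p in A549 was cagcgttgactaggc. It read 5.68, 6.04, 6.13, 4.85 and 4.95 TPM with DMSO and 5.52, 5.18, 4.59, 4.60 and 4.18 TPM with BaP, which overlap. The log2 fold change was -0.18 (SE 0.0636), with an edgeR adjusted p of 0.9999. In H520 the same tag read 10.1, 10.1, 10.9, 10.3 and 10.0 TPM with DMSO and 8.60, 9.03, 10.7, 9.01 and 9.07 TPM with BaP, which is -0.15 on the log2 scale (SE 0.0509), with an edgeR adjusted p of 0.998. The next were aggacgttaaccggc at -0.21 and aatcgaatgcggggc at -0.15, with edgeR adjusted p-values of 0.9999.

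In H520 no member passed edgeR's test either, with 0 of 676 at an adjusted p of 0.05 beside 0.0% of 223732 tags. DESeq2, whose own filter left 486 members with an adjusted p, called 1, beside 11 of the 19862 tags it left in all (0.0554%). With the transfection number as a block, edgeR called 16 members, 12 higher and 4 lower with BaP, and 150 of all tags (0.067%). The labels give DMSO and BaP libraries the same numbers without saying what a number marks. Deviations of same-numbered H520 libraries correlated over 0.1 in 5 of 5 pairs over members, and in 1 of 5 pairs over all tags. Within each number, the mean activity of the set was higher with BaP by 0.03, 0.02, 0.03, 0.01 and 0.03 log2 units in transfections 1 to 5. Without the block, small p-values were more common among members here, whose fold changes also had smaller SEs. The median SE was 0.057 over members and 0.078 over all tags tested. What part this difference in precision had in the shares that follow was not tested. There were 87 members (12.9%) at an unadjusted p under 0.05 in edgeR, where 4.71% of all tags had one, and 69 in DESeq2. The differences ran both ways, with 40 members (5.92%) higher and 47 (6.95%) lower with BaP, where 2.36% and 2.35% of all tags were. The count was 32 without DMSO transfection 3, 40 without BaP transfection 2, 43 without BaP transfection 4, 172 without BaP transfection 3 and 180 without DMSO transfection 4, and 250 with the block. Members that mark the same fragment are not independent, so this count is not one of separate fragments. For DESeq2, the block and the fits with a library left out, the share of all tags at such a p is not given.

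Sizes were again small. The median log2 fold change over members in H520 was 0.03, the middle 95% lay between -0.14 and 0.16, and the median SE was 0.057. BaP was the higher for 435 members (64.3%), against 49.95% of all tags. That count moved with single libraries, from 377 without BaP transfection 4 to 477 without DMSO transfection 4. The median log2 fold change was 0.009 and 0.053 in these fits. By level, BaP was the higher for 131 of 215 members (60.9%) with a mean activity under 1.5. It was the higher for 164 of 217 (75.6%) between 1.5 and 2, and for 140 of 244 (57.4%) between 2 and 2.5. Of those with an unadjusted p under 0.05, 11 were higher and 11 lower in the first band, 20 and 14 in the second, and 9 and 22 in the third.

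Other active classes were less evenly split in H520. Of the 242 strong balanced tags, 0 were higher and 71 (29.3%) were lower with BaP in H520 at an unadjusted p under 0.05. Of the 472 tags with an activity of at least 1 in H520 that were also 2-fold or more higher there than in A549, 114 (24.2%) were higher and 4 were lower. edgeR's adjusted p called 0 tags of either class, and the difference between the classes was not tested.

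The member with the smallest p in H520 was accaacgaatcgggc, just above the limit of activity in both lines. It read 15.3, 13.7, 14.1, 13.9 and 14.2 TPM with DMSO and 12.1, 11.9, 12.6, 12.8 and 13.8 TPM with BaP. Only the highest BaP library reached into the DMSO values. The log2 fold change was -0.17 (SE 0.0451), with an edgeR adjusted p of 0.998, and it was -0.09 (SE 0.0706) in A549.

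The tag aaccgcgatagaggc read 80.7, 78.5, 88.2, 80.4 and 79.6 TPM with DMSO and 72.7, 69.8, 77.0, 73.6 and 72.9 TPM with BaP in H520, with no overlap. Its log2 fold change was -0.15 (SE 0.0443), with an adjusted p of 0.998 in edgeR, of 0.000769 in edgeR with the block and of 0.0474 in DESeq2. It was the member that DESeq2 called. In the other direction, ctggcgaactatggc read 9.07, 9.27, 7.94, 9.53 and 8.76 TPM with DMSO and 9.62, 9.89, 9.87, 10.5 and 10.5 TPM with BaP, again with no overlap, at 0.18 on the log2 scale (SE 0.0502), with an edgeR adjusted p of 0.998. In all, 3 members had 5 BaP values all above DMSO and 5 had all below on the activity scale in H520, or 0.444% and 0.740%, where 0.416% and 0.391% of all tags did.

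The responses to BaP were then compared between the lines, with exposure time and line not told apart. edgeR's interaction called 0 of 676 members, beside 0.0% of 222669 tags, and DESeq2 called 0. At an unadjusted p under 0.05 there were 6 members (0.888%) in edgeR, where 3.45% of all tags had one, and 2 in DESeq2. This count was 23 and 20 without A549 BaP transfection 1 and 2, 20 without A549 DMSO transfection 5, 18 without H520 BaP transfection 3 or H520 DMSO transfection 4, and 3 without A549 BaP transfection 3, A549 DMSO transfection 4 or A549 BaP transfection 4. It was 58 with the transfection number as a block and 0 without scaling factors. The median difference, H520 minus A549, was 0.05 on the log2 scale, and it was positive for 495 members (73.2%), against 50.1% of all tags. Without A549 BaP transfection 5 it was positive for 320 members, and the median was -0.0038.

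The smallest interaction p belonged to gcatcgattaagggc. It read 34.1, 34.0, 32.9, 31.9 and 29.5 TPM with DMSO and 36.0, 33.9, 32.0, 32.0 and 28.1 TPM with BaP in A549. In H520 it read 37.7, 38.3, 41.0, 37.4 and 39.0 TPM with DMSO and 37.7, 32.8, 35.8, 34.8 and 34.0 TPM with BaP. Its log2 fold change was 0.01 in A549 and -0.14 in H520, a difference of -0.16 (SE 0.067), with an edgeR adjusted p of 0.9999. Next came aagctatagaatggc at 0.25 and atcgctataaggggc at 0.18, with edgeR adjusted p-values of 0.9999.

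Members close to a limit of the rule were many: 89 lay within 0.05 log2 units of a limit and 153 within 0.1. At the A549 minimum, gtacgacgctagggc was inside at 1.0009 and cgccatgattcaggc outside at 0.9999. At the H520 minimum, cgattgcgaagaggc was inside at 1.005 and cattcggataaaggc outside at 0.9989. For A549 minus H520, acggaatcgctcggc was inside at 0.951 and cgacttaagttaggc outside at 1.045 on the A549 side. On the H520 side ttcgttagtcatggc was inside at -0.993 and gtcgaattacctggc outside at -1.005. At the upper limit of the average, ggcataaactttggc was inside at 2.498 and gcgattgcgtacggc outside at 2.501. Neighbours across a limit thus differed by far less than the SD of a member between transfections, except for A549 minus H520 on the A549 side, where few tags lay.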

How the data were processed

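RNA libraries (20) and input DNA libraries (2) were used. Per the labels' protocols, polyadenylated RNA was copied to cDNA and a short stretch with the tag was amplified. The submitters' processing notes name bcl2fastq. The sources used here do not give how reads were matched to tags. Per the file headers, the deposited files give a raw read count per tag, the library's total count and the TPM; the deposited TPM equals the count per M of total counts, as recomputed. Only tags read at least 1 time are listed, and other tags were set to 0. No molecular identifiers are described, so reads are not independent molecules. No table pairing tags with fragments was used here.

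Libraries held 177.6 to 371.4 M counts. Within a group, no 2 RNA libraries were copies: their chi-square per degree of freedom over members was 6.96 to 71.5.

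BaP was tested on deposited counts with edgeR 4.0.16 (TMM, filterByExpr, quasi-likelihood, robust) over all tags that reached 10 counts in that line's input, or in both inputs for the interaction. Benjamini-Hochberg adjustment ran over all tags tested. DESeq2 1.42.0 was an alternative. Both were tested on simulated counts with planted 2-fold changes, larger than any change seen in a member. That does not show what they detect at the sizes seen here. The labels do not tie transfections to separate cultures, so p-values measure the spread between these samples. Members, classes and motifs were chosen with earlier results of these data known. Named members were those best measured, of smallest p, of extreme input ratio or SD, nearest the limits, and 1 base apart. Alternatives covered input, pseudocount, depth, centring, scaling, filter, tool, block and each library left out.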

Additional observations from a re-analysis of the deposited data

Results flagged for a closer look

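Values of the 44 named members and of the set were searched in 184 groups of 5 libraries for a library far from the other 4, of which chance marks about 1 in 20, and 10 were found.

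In the set as a whole, 610 members reached an activity of 1 in A549 DMSO transfection 5, where the other 4 libraries had 649 to 660.

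Of single tags in A549, accaacgaatcgggc was at 1.36 in DMSO transfection 3 and at 0.95 to 1.04 in the others, and gtacgacgctagggc was at 0.85 in BaP transfection 3 and at 1.01 to 1.05 in the others. In H520 with DMSO, caacgatgactcggc was at 1.40 in transfection 5 and at 1.06 to 1.15 in the others, and aaccgcgatagaggc was at 2.80 in transfection 3 and at 2.64 to 2.68 in the others.

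In H520 with BaP, 4 of the 5 marked values came from transfection 3. There cgttagaatattggc was low at 1.75 (others 1.89 to 1.94), ctcttagaatgaggc low at 2.52 (others 2.75 to 2.82) and caactatgactcggc low at 1.81 (others 1.99 to 2.03), while cagcgttgactaggc was high at 2.47 (others 2.17 to 2.24). The fifth, gttgcgttactcggc, was low at 1.39 in transfection 1 (others 1.56 to 1.60). Transfection 3 was also the lowest of 5 H520 BaP libraries for 343 of 676 members (50.7%), against 20.3% of all tags.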

How the results depend on the processing

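Calls of BaP among members stayed at 0 in A549 and in the interaction in every fit run. In H520 they stayed at 0 except in DESeq2 and with the transfection number as a replicate block. DESeq2 called 1 member, beside 11 of 19862 tags (0.0554%). The block in edgeR gave 16 calls (12 higher and 4 lower with BaP), where 150 of all tags (0.067%) were called, 86 higher and 64 lower. With it, 250 members had an unadjusted p under 0.05 in edgeR, and the share of all tags is not given. With the block, 0 members were called in A549 and 0 in the interaction. Whether the numbers pair the libraries depended on the tags used. The correlation of deviations of same-numbered libraries was 0.14 to 0.82 over members in H520, over 0.1 in 5 of 5 pairs, and 0.04 to 0.15 over all tags, over 0.1 in 1 of 5. In A549 it was -0.18 to 0.72 over members and -0.01 to 0.48 over all tags, over 0.1 in 3 of 5 pairs in both. Over all tags, the best correlate had the same number for 9 of 10 libraries in H520 and 5 of 10 in A549, which is a hint and not part of the design. With 1 library left out, each contrast gave 0 calls and the rule gave 669 to 686 members. Their number was 739 with a pseudocount of 0.1 TPM, 637 with 1 TPM, 562 without centring, and lower still with at least 500 counts required in both inputs. It was 684 from DMSO and 680 from BaP libraries alone.

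Mean activity in A549 with DMSO, A549 with BaP, H520 with DMSO and H520 with BaP was 1.42, 1.39, 1.84 and 1.87 without centring. With a pseudocount of 0.1 TPM it was 1.77, 1.75, 2.06 and 2.09, and with 1 TPM 1.51, 1.48, 1.80 and 1.82. Centring and the pseudocount are terms of activity itself, so changing them shifts its level. With 1 library left out, BaP minus DMSO of the set was -0.06 to 0.03 in A549 and 0.01 to 0.04 in H520, and group means were 1.61 to 1.67 and 1.58 to 1.67 in A549 and 1.91 to 1.95 and 1.94 to 1.97 in H520, DMSO first. Choices added after seeing the data were leaving out both A549 libraries of transfection 5 and the A549 input in both lines.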
